A study of Mus musculus with 6 samples.

Results

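A group of 9 genes linked with mature neutrophils was followed in mouse bone: Prok2, Il1r2, Cxcr2, Cxcr4, Csf3r, S100a8, S100a9, Fpr1 and Fpr2. They are 9 of the 54532 genes in the deposited table. They were selected on the contrast described here, because Prok2 and Il1r2 were higher in the knockout, so their own differences between genotypes are given as a description with no p-value. RNA was sequenced from bone of female C57BL/6J mice aged 16 weeks, in 3 wild-type (WT) libraries and 3 libraries of the MIR29cb2-/- genotype (MIR29cb2-KO). The knockout removes the cluster of Mir29c and Mir29b-2, and the labels name no Cre, transgene or treatment in either group. Nor do they name the bone or state whether its marrow was removed, or whether the 3 libraries of a group stand for 3 mice.

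Neutrophils are short-lived phagocytes that mature in the bone marrow and leave it for the blood. G-CSF acting through its receptor Csf3r drives their production, CXCL12 acting on CXCR4 retains them in the marrow, and ligands of CXCR2 draw them out. Mature cells carry formyl peptide receptors that sense bacterial peptides, store the calcium-binding alarmins S100A8 and S100A9, and display IL1R2, a decoy that binds interleukin-1 without signalling. PROK2 is a small secreted peptide that signals through the receptors PROKR1 and PROKR2 and is also made by neutrophils.

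The microRNAs of the deleted cluster are shown first because their seed is the sequence against which the transcripts of the 9 genes were searched. Mature sequences are from RefSeq (GRCm38.p6), 5′ to 3′, with the seed, bases 2 to 8, in capitals. The arms from the cluster on chromosome 1 lie at chr1:195037091-195037113 and chr1:195037600-195037621, both on the plus strand, and miR-29a-3p, which comes from chromosome 6 and shares the seed, is shown for comparison. RefSeq lists the same mature miR-29b-3p from Mir29b-1 on chromosome 6 as well, outside the deleted cluster.
mmu-miR-29b-3p: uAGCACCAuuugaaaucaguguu
mmu-miR-29c-3p: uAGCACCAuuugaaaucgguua
mmu-miR-29a-3p: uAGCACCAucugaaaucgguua

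All 3 carry the seed AGCACCA, whose reverse complement in a target transcript is TGGTGCT. That word was found in an annotated 3′ UTR of 3315 of 21153 genes (15.7%) and in 0 of the 9 genes. Their longest 3′ UTRs ranged from 68 bases in S100a8 to 1818 bases in Cxcr2, against a median of 1084 bases over all genes. The absence of this word says only that these letters are not in these annotated UTRs.

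Both promoters of the genes that passed the threshold below contain the E-box CACGTG, the palindromic binding word of bHLH factors, and are shown for that reason. Each is the 250 bases before the RefSeq start (GRCm38.p6), 5′ to 3′ along the gene, with the E-boxes in capitals. The Prok2 window is chr6:99726393-99726642 on the minus strand and the Il1r2 window is chr1:40085843-40086092 on the plus strand. The RefSeq start of Il1r2 lies inside the GENCODE span of the gene, which begins further upstream, so this window is that of 1 of its starts.
Prok2: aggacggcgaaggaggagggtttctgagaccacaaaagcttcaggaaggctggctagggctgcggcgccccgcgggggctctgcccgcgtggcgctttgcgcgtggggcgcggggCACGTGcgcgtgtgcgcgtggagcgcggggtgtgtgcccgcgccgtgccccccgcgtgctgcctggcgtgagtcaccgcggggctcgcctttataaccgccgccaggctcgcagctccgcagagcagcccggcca
Il1r2: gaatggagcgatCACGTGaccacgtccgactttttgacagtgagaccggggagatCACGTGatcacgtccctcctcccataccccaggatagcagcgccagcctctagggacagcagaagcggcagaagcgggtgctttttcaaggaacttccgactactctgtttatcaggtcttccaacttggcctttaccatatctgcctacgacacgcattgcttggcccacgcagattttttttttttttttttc

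Prok2 held 1 E-box, with its first base at position -135 from the start, and Il1r2 held 2, at -238 and -195. Of 32851 RefSeq windows of this length, 6.02% held at least 1 E-box and 0.429% held at least 2. The Prok2 window was rich in G and C (73.6%, against 51.2% for Il1r2 and a median of 52.4% over all windows). In windows that also take in the 50 bases after the start, 7.15% held CACGTG on either strand, and Prok2 and Il1r2 were the only 2 of the 9 genes with it. Of the other words searched on both strands, the C/EBP word TTGCNNAA (10.8% of all windows) was found in S100a9, and the PU.1 word GAGGAAG (13.6%) in Csf3r and S100a8. The STAT word TTCNNNGAA (8.3%) was found in Il1r2 and Fpr2. These are matches of letters, not measured binding.

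Levels are given in FPKM as deposited, that is, fragments set against exon length and a divisor for each library, so they can be compared between genes per length. How the divisor was set is not given, and it was not the recovered read total. It was 20596651 against 18808585 recovered reads in WT replicate 1, and 19514680 against 20118034 in WT replicate 2. A change is the difference of the group means of log2(FPKM + 1), knockout minus WT, which understates the change of low genes, and SE is its standard error. A gene is called where limma's Benjamini-Hochberg adjusted p was under 0.05 over the 13619 genes with a mean of at least 1 FPKM. Of these, 5.16% were called, with 1.34% higher and 3.82% lower in the knockout. The knockout libraries all lay above the WT libraries for 14.7% of genes and all below for 13.7%. Recovered reads ranged from 16727111 to 20118034 per library. WT replicate 2 and knockout replicate 1 stood apart, with FPKM totals of 489576 and 487102 against 355787 to 404994 in the other 4. The host transcript of the deleted cluster, A330023F24Rik, was at 0.162 ± 0.0315 FPKM in WT and 3.28 ± 0.788 in knockout bone (SD, n = 3), higher in all 3 knockout libraries. The mature microRNAs were not measured, so the deletion itself was not checked by these values.

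All 9 genes passed the filter on low values. Prok2 and Il1r2 were called higher (1.34% of all genes tested were) and 0 of 9 were called lower (3.82%). The knockout libraries all lay above the WT libraries for 5 of the 9 (14.7% of all genes), namely Prok2, Il1r2, Cxcr2, S100a8 and Fpr2. Nothing is read from these counts, since the same contrast chose the genes. The median change of the 9 was 0.52, against 0.06 over all genes tested. In bulk bone RNA, more cells of a type and more RNA per cell cannot be told apart.

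**Figure D1:**
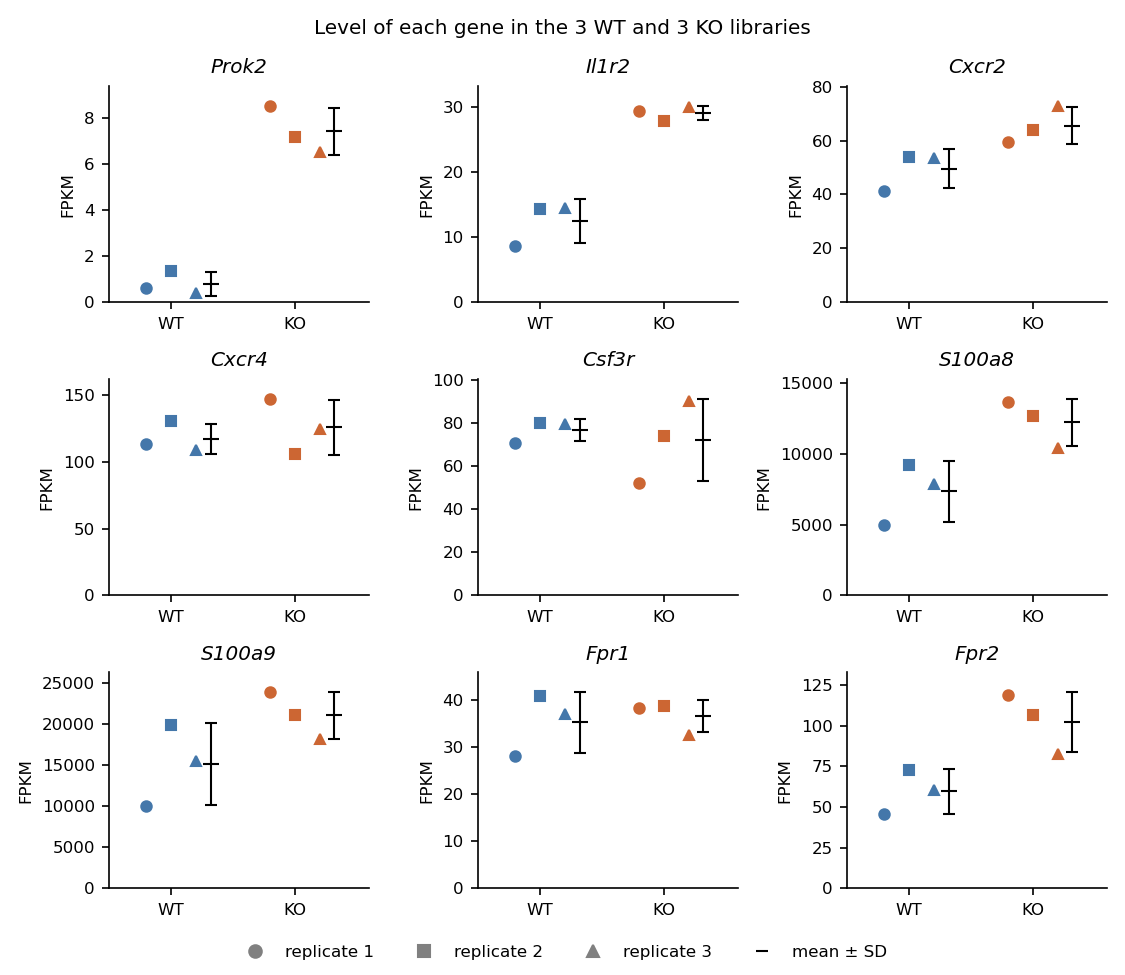
Level of each of the 9 genes in FPKM on linear axes from 0, with 1 point per library (WT, wild type; KO, MIR29cb2-KO), the symbol marking the replicate number and black bars the mean ± SD of 3 libraries. Prok2 and Il1r2 show the clearest separation, Cxcr2, S100a8 and Fpr2 separate by smaller gaps, and the groups overlap for Cxcr4, Csf3r, S100a9 and Fpr1.

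Prok2, the secreted ligand, was low in WT bone and several-fold higher in every knockout library. The gene (ENSMUSG00000030069) lies at chr6:99711299-99726392 on the minus strand (mm10). Its level was 0.608, 1.36 and 0.405 FPKM in WT replicates 1 to 3 and 8.53, 7.19 and 6.51 FPKM in knockout replicates 1 to 3. The knockout libraries lay close together, and the lowest of them was above the highest WT library, replicate 2. The group means were 0.792 ± 0.505 and 7.41 ± 1.03 FPKM (SD, n = 3), a ratio of 9.36. On the log2 scale the change was 2.26 (SE 0.21), rank 5 among the 13619 genes tested. The WT values rest on 24, 51 and 14 reads and the knockout values on 271, 240 and 216 reads, so counting error is largest in WT. The change ranged from 2.10 to 3.33 over 18 alternative settings and stayed past the threshold in each of them; a stricter filter left the gene out. Its mean over the 6 libraries exceeded that of 33.5% of the genes tested.

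A noncoding gene on the opposite strand, Gm26748, overlaps the start of Prok2. It was at 0.0115 FPKM on average in WT and 0.462 FPKM in knockout bone, far under Prok2 itself. The use of strand in counting is not given in the sources used here, so reads from the shared stretch cannot be told apart.

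Of the other prokineticin genes, only the receptor Prokr1 passed the filter. It was at 2.61, 1.38 and 2.95 FPKM in WT and 1.95, 2.55 and 2.09 FPKM in knockout libraries, with overlapping groups and a change of -0.02 (SE 0.21, adjusted p = 0.97 in limma). Prokr2 did not exceed 0.056 FPKM in any library, and the sister ligand Prok1 was listed at 0 in all 6. Prokr1 was thus the only prokineticin receptor with a level above the filter, and limma called 0 of this list, with 0 at an unadjusted p under 0.05 and 0 by voom on the recovered reads.

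Il1r2, the interleukin-1 decoy receptor, was the second of the 9 genes past the threshold. The gene (ENSMUSG00000026073) lies at chr1:40074079-40125231 on the plus strand, on the same chromosome as the deleted cluster. It was at 8.63, 14.4 and 14.5 FPKM in WT and 29.3, 27.8 and 30.04 FPKM in knockout libraries. The 3 knockout libraries were nearly equal, and WT replicate 1 was the low library. The means were 12.5 ± 3.36 and 29.1 ± 1.12 FPKM (SD, n = 3), a ratio of 2.32, and the change was 1.19 (SE 0.20), rank 73 of the genes tested. The size of this change held between 0.96 and 1.30 over 19 alternatives, but the call was lost without knockout replicate 1, 2 or 3 (changes of 1.18, 1.22 and 1.16), with both libraries that stood apart left out (1.29), with no filter and with a replicate block (1.19 in both). Il1r2 overlaps the noncoding genes Gm16894 (antisense) and Gm37347 (same strand), which reached at most 1.30 and 0.903 FPKM in any library.

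In the interleukin-1 family a single gene was called, the cytokine Il1b. Of 17 genes of the list 16 passed the filter. Of these, 0 were called higher and 1, Il1b, lower, against 1.34% and 3.82% of all genes. Il1b was at 16.8, 20.1 and 16.0 FPKM in WT and 4.78, 4.61 and 9.82 FPKM in knockout libraries, and knockout replicate 3 was the closest to WT. Its change was -1.39 (SE 0.26, adjusted p = 0.034 in limma), and the call was lost when any library but knockout replicate 3 was left out. The ratio of decoy receptor to cytokine, Il1r2 to Il1b, was 0.515, 0.715 and 0.907 in WT and 6.14, 6.04 and 3.06 in knockout libraries. The ratio of the decoy to the signalling receptor Il1r1 averaged 3.45 ± 1.11 in WT and 7.37 ± 1.52 in knockout bone (SD, n = 3). Both ratios are descriptions, since Il1r2 was selected as higher and Il1b was called lower on the same contrast.

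The other genes of that family with high levels were not called. The adaptor Myd88 was at 22.6 ± 5.25 and 31.3 ± 3.83 FPKM and the protease Casp1, which matures Il1b, at 17.99 ± 0.569 and 24.03 ± 3.20 FPKM in WT and knockout bone (SD, n = 3). Both lay higher in all 3 knockout libraries, with adjusted p = 0.22 and 0.13 in limma. The cytokine Il36g was at 20.8 ± 3.67 and 23.9 ± 5.18 FPKM with overlapping groups. The median change of the 16 genes was 0.19.

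Of the chemokine receptors that set marrow release and retention, Cxcr2 lay higher in all knockout libraries and Cxcr4 did not. Cxcr2 (ENSMUSG00000026180, chr1:74153989-74161246, plus strand) is the receptor for release signals. It was at 41.1, 53.8 and 53.5 FPKM in WT and 59.5, 63.9 and 72.9 FPKM in knockout libraries, with WT replicate 1 lowest and no overlap. The change was 0.40 (SE 0.16) and did not pass the threshold, with means of 49.5 ± 7.21 and 65.4 ± 6.85 FPKM (SD, n = 3), a ratio of 1.32. The retention receptor Cxcr4 (ENSMUSG00000045382, chr1:128588199-128592293, minus strand), which many marrow cell types also carry, was at 113, 130.3 and 109 FPKM in WT and 147, 106 and 124 FPKM in knockout libraries. Its groups overlapped, with knockout libraries both highest and lowest, and the change was 0.09 (SE 0.17). The direction for Cxcr4 turned to -0.03 without knockout replicate 1 and to -0.0040 with array weights. The ratio of Cxcr2 to Cxcr4 was 0.422 ± 0.0640 in WT and 0.531 ± 0.111 in knockout bone (SD, n = 3), with overlapping libraries.

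The ligands of these receptors were present at very different levels. Of 15 genes of the axis 12 passed the filter, and the CXCR2 ligands Cxcl1, Cxcl2 and Cxcl3 did not. The platelet chemokines Ppbp, a CXCR2 ligand, and Pf4 were abundant, at 615 ± 203 and 331 ± 99.5 FPKM in WT and 893 ± 77.3 and 434 ± 71.7 FPKM in knockout bone (SD, n = 3), with overlapping groups. The CXCR4 ligand Cxcl12 was at 187, 166 and 208 FPKM in WT and 146, 159 and 142 FPKM in knockout libraries, lower in all 3 but not called (change -0.32, adjusted p = 0.30 in limma). Mif, a cytokine that binds both receptors, was at 107 ± 32.2 and 152 ± 44.9 FPKM.

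Of the 12 measured genes of the axis 0 were called higher and 1 lower, against 1.34% and 3.82% of all genes. The gene called was the scavenging receptor Ackr3, which removes Cxcl12. It was at 5.96, 7.91 and 4.25 FPKM in WT and 1.87, 1.65 and 2.47 FPKM in knockout libraries. The change was -1.21 (SE 0.21, adjusted p = 0.030 in limma), and the call was lost without WT replicate 1 or 2 or knockout replicate 1 or 2. The median change of the 12 genes was 0.37.

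Csf3r, the G-CSF receptor, had group means closer than the spread of its libraries, which was wide in the knockout. The gene (ENSMUSG00000028859) lies at chr4:126024550-126044440 on the plus strand. It was at 70.7, 80.3 and 79.4 FPKM in WT and 52.4, 74.0 and 90.5 FPKM in knockout libraries. Knockout replicate 1 was the lowest and knockout replicate 3 the highest of all 6 libraries. The means were 76.8 ± 5.30 and 72.3 ± 19.1 FPKM (SD, n = 3), and the change was -0.12 (SE 0.21). Its sign turned to 0.09 without knockout replicate 1 and to 0.13 without both libraries that stood apart. Of the 36-base words in Csf3r exons 19.2% occur in other genes as well, in repeats spread over 552 genes.

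Of 13 measured genes listed with the G-CSF axis, 2 were called higher (1.34% of all genes) and 0 lower (3.82%). The list includes receptor chains of other cytokines. The shared cytokine receptor chain Csf2rb, one of those called, was at 16.7, 10.3 and 15.8 FPKM in WT and 25.7, 32.9 and 34.4 FPKM in knockout libraries, a change of 1.09 (SE 0.21, adjusted p = 0.035 in limma). All 3 knockout libraries lay above WT for this chain. The count became 0 when any 1 of the 6 libraries was left out.

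All knockout libraries lay above WT for 8 of the 13 genes, against 14.7% of all genes tested. The 3 of these 8 given here were not called. Pim1, a kinase induced by STAT signalling, was at 39.4 ± 6.13 and 71.7 ± 13.9 FPKM (adjusted p = 0.054 in limma). The GM-CSF receptor chain Csf2ra was at 69.97 ± 3.41 and 94.5 ± 1.44 FPKM (adjusted p = 0.091) and the kinase Lyn at 45.5 ± 4.35 and 52.05 ± 2.22 FPKM (SD, n = 3). The ligand Csf3 did not pass the filter. The median change of the 13 genes was 0.26.

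The alarmins S100a8 and S100a9 were the most abundant of the 9 genes by far. S100a8 (ENSMUSG00000056054, chr3:90668978-90670035, plus strand) was at 5016, 9256 and 7872 FPKM in WT and 13662, 12696 and 10434 FPKM in knockout libraries. The groups did not overlap, WT replicate 1 was the lowest library, and the change was 0.77 with an SE of 0.42, not past the threshold. S100a9 (ENSMUSG00000056071, chr3:90692632-90695721, minus strand) was at 10006, 19927 and 15482 FPKM in WT and 23939, 21063 and 18146 FPKM in knockout libraries. Its groups overlapped, since WT replicate 2 exceeded knockout replicate 3, and the change was 0.52 (SE 0.49). The group means were 7381 ± 2162 and 12264 ± 1657 FPKM for S100a8 and 15138 ± 4970 and 21049 ± 2896 FPKM for S100a9 (SD, n = 3).

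The 2 proteins work as a dimer, and their genes lie 22596 bases apart. Together they held 0.953%, 1.63% and 1.39% of recovered reads in WT and 2.08%, 2.06% and 1.71% in knockout libraries. The ratio of S100a8 to S100a9 was steadier than either level, at 0.501, 0.465 and 0.508 in WT and 0.571, 0.603 and 0.575 in knockout libraries. The means of this ratio were 0.491 ± 0.0236 and 0.583 ± 0.0174 (SD, n = 3), so S100a8 made up a larger part of the pair in each knockout library. This ratio is a description too, since both genes were chosen on the same contrast.

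Other S100 genes and alarmin receptors had overlapping groups throughout. Of 11 genes, which all passed the filter, limma called 0, against 5.16% of all genes. Of the 11, 0 had an unadjusted p under 0.05, and voom called 0. The calcium-binding proteins S100a6, S100a10 and S100a11 were at 177 ± 91.3, 97.5 ± 24.6 and 589 ± 176 FPKM in WT and 177 ± 20.6, 98.7 ± 23.9 and 591 ± 98.3 FPKM in knockout bone (SD, n = 3). Bsg, a surface receptor for S100A9, was at 402 ± 107 and 351 ± 62.6 FPKM. Outside these most abundant genes, S100a4 had the largest change of the list in size, at -0.65, with 14.1 ± 5.84 and 8.59 ± 3.28 FPKM (SD, n = 3), and was chosen after its values were seen. The median change of the 11 genes was -0.07.

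The formyl peptide receptors, which guide neutrophils to bacteria and injured tissue, are neighbours on chromosome 17 with unlike values here. Fpr1 (ENSMUSG00000045551, chr17:17876471-17883940, minus strand) was at 28.2, 40.8 and 37.0 FPKM in WT and 38.4, 38.7 and 32.6 FPKM in knockout libraries. WT libraries were both the lowest and the highest, and the change was 0.06 (SE 0.17), turning to -0.09 without WT replicate 1. Fpr2 (ENSMUSG00000052270, chr17:17887824-17893952, plus strand) was at 45.5, 73.1 and 60.7 FPKM in WT and 118.7, 106.6 and 82.5 FPKM in knockout libraries. All 3 knockout libraries lay above WT, with means of 59.8 ± 13.8 and 102.6 ± 18.4 FPKM (SD, n = 3), a ratio of 1.72, and the change was 0.78 (SE 0.22). Fpr2 did not pass the threshold, but did so with quantile normalization, with array weights and with the trend on exon length removed (changes of 0.72, 0.80 and 0.79).

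The ratio of Fpr2 to Fpr1 was 1.61, 1.79 and 1.64 in WT and 3.09, 2.75 and 2.53 in knockout libraries. In WT it varied less than either gene, and the groups did not overlap, at 1.68 ± 0.0961 and 2.79 ± 0.286 (SD, n = 3). This ratio is likewise a description of genes chosen on the same contrast. The genes lie 3883 bases apart on opposite strands. Of the 36-base words in Fpr2 exons 39.5% also occur in Fpr1, Fpr3 or Gm5966, against 1.16% of those in Fpr1, so the split of reads between Fpr2 and its relatives is uncertain. Fpr3, whose span overlaps that of Fpr2 on the same strand, was at 0.203 and 0.418 FPKM on average.

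**Figure D2:**
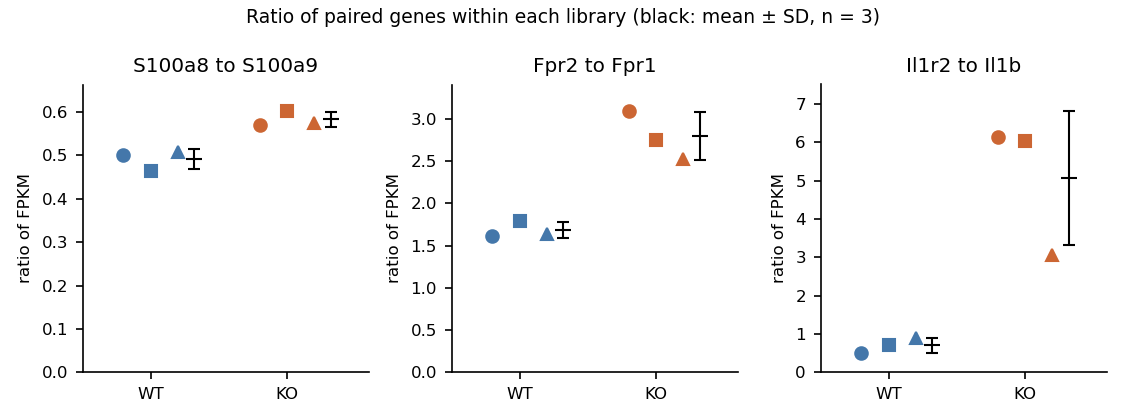
Ratio of FPKM between 2 genes within each library, on linear axes from 0, for S100a8 to S100a9, Fpr2 to Fpr1 and Il1r2 to Il1b (WT, wild type; KO, MIR29cb2-KO; circle, square and triangle, replicates 1, 2 and 3; black bars, mean ± SD). All 3 ratios were higher in every knockout library, from 0.491 to 0.583, from 1.68 to 2.79 and from 0.712 to 5.08 on average. They are descriptions, since the 9 genes were chosen on the same contrast and Il1b was called lower on it. The ratio of Cxcr2 to Cxcr4, not drawn, overlapped between groups.

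Of 15 genes for other chemoattractant receptors and their signalling 10 passed the filter, and Fpr-rs3, Fpr-rs4, Fpr-rs6 and Fpr-rs7 were listed at 0 in all libraries. Limma called 0 of the 10, against 5.16% of all genes, with 2 at an unadjusted p under 0.05 and 0 by voom. Anxa1, which encodes a protein ligand of FPR2, was at 239, 303 and 312 FPKM in WT and 513, 505 and 441 FPKM in knockout libraries. It lay higher in all 3, with a change of 0.78 (SE 0.19, adjusted p = 0.062 in limma). The leukotriene B4 receptor Ltb4r1 was at 49.1 ± 9.80 and 67.2 ± 17.5 FPKM, the G protein subunit Gnai2 at 198 ± 8.83 and 217 ± 19.5 FPKM and the GTPase Rac2 at 169 ± 26.7 and 209 ± 28.2 FPKM (SD, n = 3), all with overlapping groups. The median change of the 10 genes was 0.17.

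Within the WT group the 9 genes deviated the same way in replicates 1 and 2, while in the knockout they split. In WT replicate 1 all 9 were below their group mean, from -0.05 for Cxcr4 to -0.54 for S100a9 on the log2 scale. In WT replicate 2 all 9 were above it, from 0.07 for Csf3r to 0.45 for S100a9. Fpr1 and S100a8 deviated nearly in step, with Pearson's r of 0.99 over the 6 libraries' deviations, as did S100a8 and S100a9 (0.99) and Fpr1 and Fpr2 (0.96). Other pairs did not follow each other, with r of -0.13 for Csf3r and S100a8, 0.35 for Cxcr4 and S100a8, -0.04 for Cxcr2 and Cxcr4 and 0.22 for Prok2 and Il1r2. In knockout replicates 1 and 3 Cxcr2 deviated by -0.13 and 0.16 and Csf3r by -0.42 and 0.35, against 0.16 and -0.22 for S100a8. These r values describe 6 libraries, with each group's mean removed, that differ in FPKM total and in the summed marker levels given below. The part of these differences in the r values was not tested.

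**Figure D3:**
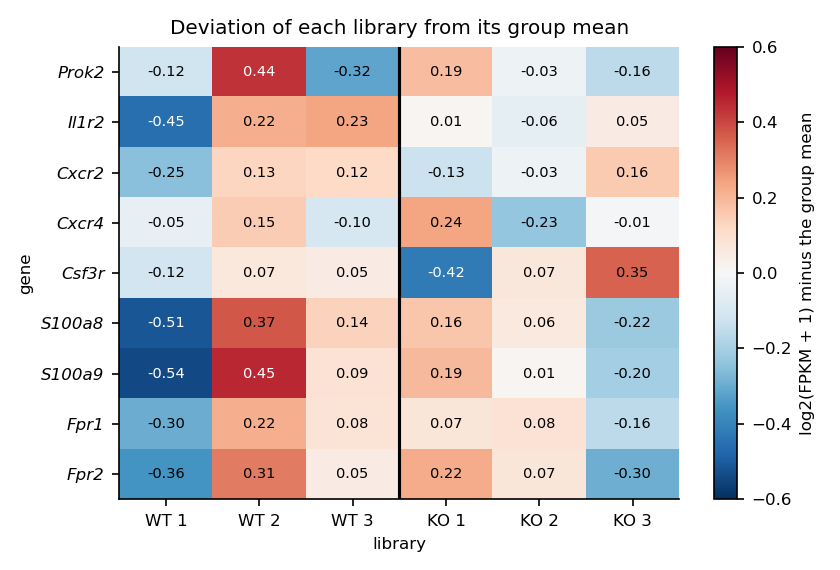
Deviation of log2(FPKM + 1) from the group mean for each of the 9 genes in each library (WT, wild type; KO, MIR29cb2-KO), with red above and blue below the mean and the value in each cell. WT replicate 1 was below and WT replicate 2 above the mean for all 9 genes, and Csf3r and Cxcr2 ran against the S100 and Fpr genes in knockout replicates 1 and 3.

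To see how the 9 genes stood among other neutrophil genes, 45 further markers of mature neutrophils were examined, which all passed the filter. Of these, 5 were called higher and 0 lower, against 1.34% and 3.82% of all genes. Without overlap, 23 lay above WT and 2 below it, against 14.7% and 13.7% of all genes. Their median change was 0.46, against 0.06 over all genes tested. Of the 45 changes 37 were above 0, against 59.1% over all genes. The summed level of the 45 was 3802 to 6134 FPKM in WT and 6332 to 7898 FPKM in knockout libraries. The count depended on single libraries, and was 0 without WT replicate 1 or knockout replicate 2, 1 without knockout replicate 1, 2 without WT replicate 3, and 3 without WT replicate 2 or knockout replicate 3. It also became 1 with no filter, 2 without both libraries that stood apart, 10 with quantile normalization, 14 with the length trend removed, and 20 higher and 2 lower with array weights. Some of these markers, and the precursor markers below, were known to be higher from earlier results of these data.

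The 5 called genes are an aspartic protease, receptors and interferon-linked genes. Asprv1, the protease, was at 14.4 ± 2.46 and 32.4 ± 2.46 FPKM in WT and knockout bone (SD, n = 3; change 1.12, adjusted p = 0.016 in limma). The receptors Clec4e, which senses fungal and mycobacterial glycolipids, and Trem3 changed by 0.82 and 0.90 (adjusted p = 0.020 and 0.037). Slfn4 and Ifitm6 changed by 1.06 and 1.45 (adjusted p = 0.023 and 0.027), and Ifitm6 reached 860, 720 and 594 FPKM in the knockout libraries. The iron-binding protein Lcn2 was at 505 ± 128 and 929 ± 139 FPKM and Wfdc21 at 396 ± 135 and 711 ± 88.2 FPKM, both higher in all knockout libraries without a call. Retnlg, the most abundant of the 45, was at 1307 ± 474 and 1255 ± 361 FPKM with overlapping groups. While 37 of the 45 changes were above 0, Mmp9 and Dusp1 lay below WT without overlap (changes of -0.26 and -0.47, not called). Clec4d and Stfa2l1 changed by -0.55 and -0.53 and Ly6g by -0.04, with overlapping groups.

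Set against the mean log2 level of these 45 markers in the same library, which was 0.41 higher in the knockout, the 9 genes spread to both sides. The difference between groups was 1.85 for Prok2 and 0.78 for Il1r2. For Fpr2, S100a8 and S100a9 it was 0.37, 0.36 and 0.11, and for Cxcr2 it was -0.01. Cxcr4, Fpr1 and Csf3r lay lower relative to these markers, by -0.32, -0.35 and -0.53. The same 0.41 is taken from every gene, so the order of the 9 is that of their changes. Before it was taken, the changes of Cxcr4, Fpr1 and Csf3r were 0.09, 0.06 and -0.12, with overlapping groups. Some of the 45 markers were known to be higher from earlier results of these data, so the values relative to them depend on that choice. Cxcr2 relative to the markers ranged from 0.10 to 0.50 in the knockout and from 0.26 to 0.37 in WT libraries.

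Immature neutrophils make most granule proteins before the cells mature, and part of their markers were called higher. Of 22 precursor markers 7 were called higher and 0 lower, against 1.34% and 3.82% of all genes. Without overlap, 12 lay above WT and 1 below it, against 14.7% and 13.7% of all genes. The median change was 0.38, with summed levels of 9939 to 15855 FPKM in WT and 16776 to 20046 FPKM in knockout libraries. Called were the primary granule proteins Ctsg, Prtn3 and Mpo (changes of 1.63, 1.51 and 1.05), with Ms4a3 (1.45), Chil3 (1.29), the protease inhibitor Serpinb1a (1.13) and the transcription factor Gfi1 (0.77), at adjusted p of 0.010 to 0.045 in limma. Ctsg was at 159, 177 and 178 FPKM in WT and 637, 486 and 482 FPKM in knockout libraries. The granule proteins Camp and Ngp and the lysozyme Lyz2, at 3049 ± 1117, 3930 ± 983 and 2675 ± 418 FPKM in WT, were at 3084 ± 520, 4947 ± 618 and 2548 ± 149 FPKM in knockout bone (SD, n = 3), with overlapping groups. The count of 7 fell to 0 without WT replicate 1, to 1 without knockout replicate 2, to 2 without knockout replicate 1 and to 4 without any 1 of the others. With no filter it was 2 and without both libraries that stood apart 4, and array weights gave 10 higher and 1 lower.

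**Figure D4:**
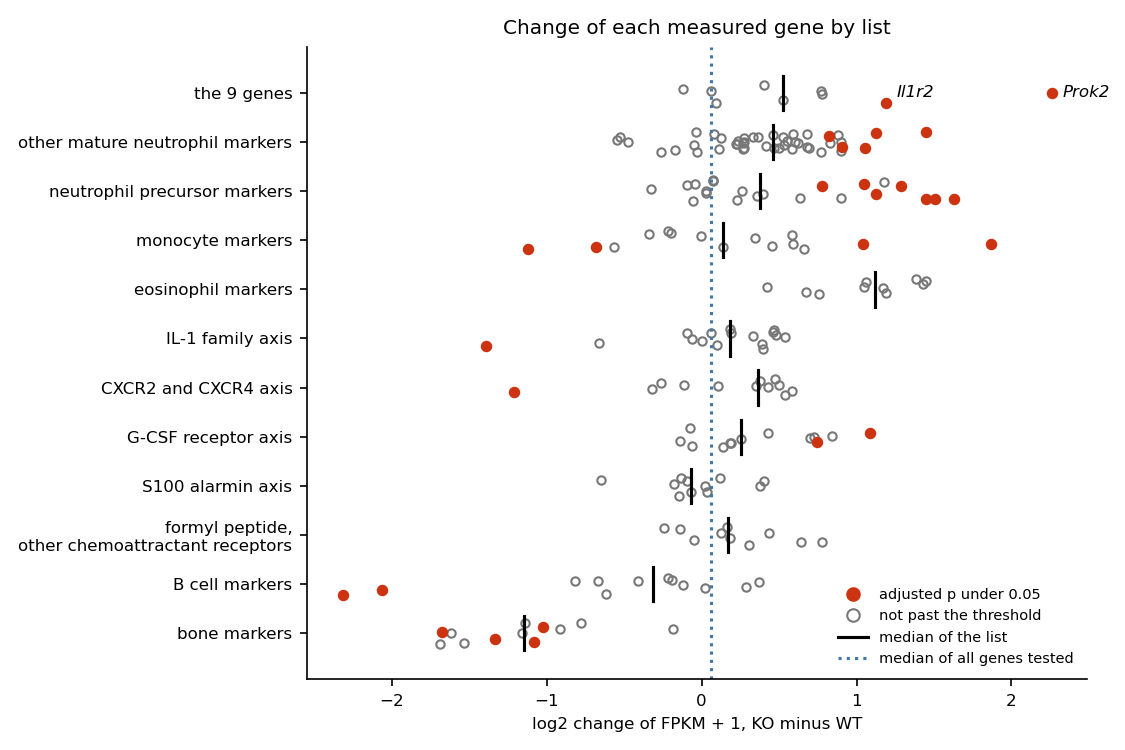
Change of log2(FPKM + 1), knockout minus WT, for each measured gene of 12 lists, with filled points past the threshold, a black line at the list's median and a dotted line at the median of all genes tested. Prok2 has the largest positive change of the genes shown, and the mature and precursor neutrophil lists have medians of 0.46 and 0.38 against 0.06 for all genes.

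Several of the 9 genes are also expressed outside neutrophils, so markers of other cell types were counted, and their part in the values above was not tested. Monocyte markers moved both ways, with 2 of 15 called higher and 2 lower, against 1.34% and 3.82% of all genes. Their median change was 0.14. The coagulation factor F13a1 was at 30.3 ± 2.65 and 63.5 ± 6.56 FPKM and the matrix protein Vcan at 0.744 ± 0.0713 and 5.40 ± 0.85 FPKM, both called higher, while the receptors Csf1r (36.4 ± 2.65 and 22.3 ± 1.30 FPKM) and Cx3cr1 (6.24 ± 0.584 and 2.42 ± 1.05 FPKM) were called lower (SD, n = 3). The call for Csf1r was lost when any 1 library was left out, that for Cx3cr1 when any but knockout replicate 2 was, and that for F13a1 without WT replicate 1 or knockout replicate 2. Ly6c2, Ctss and Lgals3 were not called, and the summed level of the list was 615 to 723 FPKM in WT and 726 to 865 FPKM in knockout libraries.

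Eosinophil markers were high in a single library. Their summed level was 640 to 1529 FPKM in WT and 563 to 7449 FPKM in knockout libraries, with the granule protein Prg2 at 4518 FPKM in knockout replicate 1 against 343 and 969 FPKM in replicates 2 and 3. Ear1, Ear2 and Ear6 were likewise highest in that library, at 875, 820 and 653 FPKM. Limma called 0 of the 10 markers, against 5.16% of all genes, with 1 at an unadjusted p under 0.05 and 0 by voom. The median change of the 10 was 1.12. Knockout replicate 1 was also the highest library for Prok2, S100a8, S100a9, Fpr2 and Cxcr4. The part of eosinophils in these values was not tested.

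Among the other blood lineages, limma called 0 of 7 measured basophil and mast cell markers and 0 of 11 T and NK cell markers. It also called 0 of 9 megakaryocyte and 0 of 10 erythroid markers, against 5.16% of all genes. At an unadjusted p under 0.05 these lists had 4, 2, 0 and 0 genes, and voom called 0 in each. Their medians were -0.22, 0.02, 0.35 and 0.06, and no marker of these lists was at 0 in all libraries. The summed megakaryocyte level was 864 to 1518 FPKM in WT and 1408 to 1714 FPKM in knockout libraries, and the summed erythroid level 28182 to 61297 and 29559 to 50802 FPKM. For basophil and mast cell markers the sums were 162 to 196 and 114 to 165 FPKM, and for T and NK cell markers 72.0 to 111 and 119.9 to 160 FPKM. Over that last list Nkg7, a cytotoxic granule gene, made up more than any other marker, at 46.1 ± 9.75 and 86.3 ± 22.3 FPKM (SD, n = 3; adjusted p = 0.088 in limma). Of 12 B cell markers 0 were called higher and 2 lower, against 1.34% and 3.82% of all genes. The 2 were the surrogate light chain genes Vpreb1 and Igll1. In WT they were at 21.5 ± 7.78 and 14.7 ± 5.13 FPKM. In knockout bone they were at 3.54 ± 1.92 and 2.77 ± 1.46 FPKM (SD, n = 3). Neither was called without WT replicate 1 or 2 or knockout replicate 1, and Igll1 was not called without knockout replicate 3 either.

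Bone transcripts were abundant in every library, as the tissue label has it, and were lower in the knockout. The 12 bone markers summed to 2115 to 4047 FPKM in WT and 851 to 1788 FPKM in knockout libraries. Of these markers, 0 were called higher and 4 lower, against 1.34% and 3.82% of all genes, with a median of -1.15. The called genes were the osteoblast factor Sp7, the phosphatase Alpl and the osteocyte genes Dmp1 and Phex, with changes of -1.33, -1.67, -1.03 and -1.09. Of 8 measured osteoclast markers 1 was called lower, against 3.82% of all genes, and the median was -1.19. The called marker was the proton pump subunit Atp6v0d2 (change -1.50). The count of 4 bone calls became 3 without WT replicate 3, 1 without WT replicate 2 or knockout replicate 1 and 0 without any 1 of the others, and that of Atp6v0d2 was lost without WT replicate 1 or 2 or knockout replicate 1 or 2. The part of the balance between bone and blood cell RNA in the levels of the 9 genes was not tested.

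The genes most like Prok2 over the 6 libraries were ranked by Pearson's r of log2(FPKM + 1) among 11458 named protein-coding genes that were not among the 9. The closest 5 were Qsox1 and Card9 (both 0.996), Arl14ep (0.993), Hsp90aa1 (0.991) and Hyou1 (0.990). Card9, a signalling adaptor, was at 20.4 ± 3.57 and 39.8 ± 1.42 FPKM, and the chaperones Hsp90aa1 and Hyou1 at 143 ± 8.62 and 12.04 ± 0.643 FPKM in WT and 240.4 ± 17.6 and 25.3 ± 1.79 FPKM in knockout bone (SD, n = 3). Among the 5 closest to S100a8 were Ccz1 (0.998), Wfdc21 (0.997), Vasp and Sgpp1 (both 0.991). Wfdc21 is itself one of the 45 markers, with a change of 0.90. With 6 libraries in 2 groups, such values describe a shared pattern over these libraries only.

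**Figure D5:**
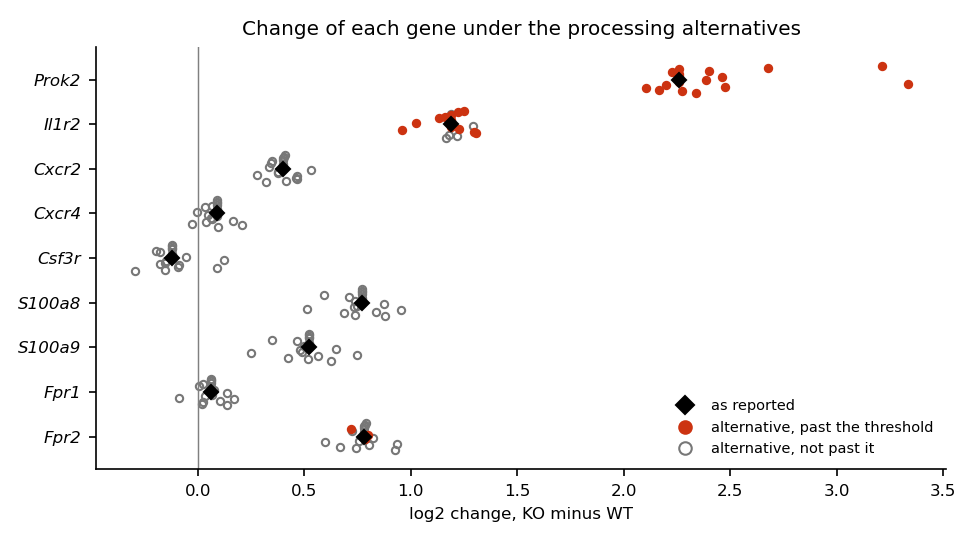
Change of each of the 9 genes, knockout minus WT on the log2 scale, as reported (black diamond) and under each alternative setting (points; filled where past the threshold). Prok2 stayed past the threshold throughout, between 2.10 and 3.33, Il1r2 in 13 of 19 alternatives, Fpr2 in 3, and the points for Cxcr4, Csf3r and Fpr1 fall on both sides of 0.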

How the data were processed

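The authors deposited a single table of FPKM values, 54532 genes by 6 libraries. Bowtie 0.12.2 and the mm10 build are named in the submitters' processing notes. How reads were counted, scaled and assigned to strand is not given in the sources used here. GENCODE M21 gave names, coordinates, exon lengths and 3′ UTRs for 54495 identifiers, and Il36g was matched through a RefSeq synonym. FPKM times exon length and a divisor found for each library gave whole reads, within 0.01 reads, for 96.9% of 29600 genes. This puts 16727111 to 20118034 reads in a library.

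Groups were compared in R 4.3.3 with limma 3.58.1 (trended eBayes) on log2(FPKM + 1). Genes whose mean reached 1 FPKM were kept (13619), with Benjamini-Hochberg adjustment over all of them and calls at an adjusted p under 0.05. The p-values set the difference between groups against the spread of these libraries only. Since no label ties libraries to separate animals, that spread may be technical. The 9 genes and the 17 gene lists were chosen with earlier results of these data known.

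By rule, the genes to name were the 9, from each list the called genes (at most 8) and the 4 with the highest mean FPKM, every prokineticin gene, and the 5 genes most like Prok2 and the 5 most like S100a8. Of the lists of other lineages some of these appear in counts only. Of the genes the rule names, 2 are not reported here by name. Genes that overlap the 9 in position or sequence and ligands and receptors listed at 0 or below the filter are named outside that rule. So are Il1r1, the host transcript and the neutrophil markers Dusp1, Clec4d, Stfa2l1 and Ly6g. These markers were chosen after their values were seen.

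Alternatives covered the pseudocount (0.1 and 0.5), the filter (none, and a mean of 5), scaling (quantile, upper quartile), eBayes without trend or with robust estimation, array weights, a replicate block, removal of the trend on exon length, voom on the recovered reads, and leaving out libraries. The limma step was tested on simulated counts with a dispersion set at 0.0235. It recovered 16% of the 1.5-fold changes, 66% of the 2-fold changes and 100% of the 4-fold and 8-fold changes. Of its 150 calls 16 were false, which is more than an adjusted p under 0.05 is meant to let through. A call may therefore be less certain than its adjusted p states. Since many of the 1.5-fold changes were missed, a gene that was not called may still have changed. Figures were drawn with matplotlib 3.10.9.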

Additional observations from a re-analysis of the deposited data

How the results depend on the processing

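Of 703 calls over the whole table, the count became 143 with no filter, 365 with the stricter filter, 238 without both libraries that stood apart, 1216 with the length trend removed and 3354 with array weights, and leaving out 1 library gave 62 to 409. The 2 calls among the 9 genes became 1 with no filter, with the stricter filter (where Prok2 was not tested) and without both such libraries, and 1 to 2 when 1 library was left out. The 27 calls over the lists (16 higher, 11 lower) became 5 with no filter, 45 with quantile normalization, 88 with array weights, 14 without both such libraries, 53 with the length trend removed, and 1 to 15 with 1 library left out. The pseudocounts, upper quartile scaling, both variance models and voom, which called 836 genes, kept these counts within 1.5 times. Cxcr4 reversed to -0.0040 with array weights and Csf3r to 0.13 without both libraries. With 1 library left out, the change ranged from -0.029 to 0.21 for Cxcr4, from -0.30 to 0.092 for Csf3r and from -0.088 to 0.17 for Fpr1. Knockout replicate 1 was the library whose removal reversed the first 2, and WT replicate 1 the third. The cause was not tested.

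Both groups have replicates numbered 1 to 3, but same-numbered libraries did not deviate together (r of -0.493, -0.270 and 0.158). WT replicate 2 and knockout replicate 1, the libraries that stood apart, had an r of 0.545. With 3 libraries per group such values cannot decide whether the numbers pair the libraries. The labels state no pairing, and the main comparison treated the libraries as unpaired. With a replicate block 127 genes were called over the whole table, 1 of the 9 genes (Prok2; Il1r2 kept its change of 1.19 without a call) and 5 list genes, with 0 among the mature and 0 among the precursor neutrophil markers. Depth limits Prok2 in WT, with 89 reads over 3 libraries.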
